A study of Mus musculus with 14 samples.

Results

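Hjurp, Irf2bp2, Sin3a, Zfp36l2, Rhof, B9d2 and Trim8 are 7 mouse genes that carried some of the strongest islands of the histone demethylase UTX in bone marrow progenitors. They were chosen by the number of UTX reads in the strongest island at a gene end, which had to be high in both UTX libraries, with no island in the IgG control there. A gene end is the stretch of 2 kb on either side of either annotated end of a gene, and an island is a stretch of enriched reads called in 1 library. Of 21883 protein-coding genes, 7552 had UTX islands in both libraries and none in IgG, and the 7 genes come from the top of these. The study profiled chromatin by ChIP-seq in bone marrow progenitors depleted of lineage-positive cells (Lin-), taken from C57BL/6 mice with intact UTX (UTX WT) or without it (UTX KO). The acetyl mark H3K27ac and the methyl mark H3K27me3 were each measured in 2 WT and 2 KO libraries, UTX in 2 WT libraries, and IgG, which the labels assign to a BCOR experiment, in 1 WT library. The labels do not give the deleted allele, a Cre driver or the age of the mice, nor whether libraries of a group came from separate animals, so p-values measure only the spread between these libraries.

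UTX, the product of Kdm6a, removes methyl groups from lysine 27 of histone H3, a mark placed by Polycomb complexes at silent genes. It also sits in the COMPASS-like complexes that mark enhancers, and the same lysine, when acetylated, marks active promoters and enhancers. The 7 genes encode proteins of different kinds. Irf2bp2 is a transcriptional corepressor that binds IRF2, Sin3a is the scaffold of a histone deacetylase complex, and Zfp36l2 is an RNA-binding protein that promotes decay of AU-rich messages. Trim8 is a RING-type ubiquitin ligase that binds SOCS1, B9d2 belongs to the transition zone of the primary cilium, and Hjurp is the chaperone that deposits CENP-A at centromeres.

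The promoters that the strong UTX islands covered, or that lay beside them, are printed here from RefSeq (build GRCm38.p6, the assembly of mm10), 5′ to 3′ on the gene's strand. Each is the part of the 250 bases before a listed start that lies outside the annotated gene. Capitals mark matches, on either strand, to the ETS motif CCGGAA, the GATA motifs AGATAA and TGATAA, the GC box GGGCGG and the motif CCAAT, each searched on its own, so that matches may overlap. The promoters of Irf2bp2, Sin3a and Hjurp lay inside the gene's strongest UTX island in at least 1 library:
Irf2bp2, chr8:126593987-126594236, minus strand: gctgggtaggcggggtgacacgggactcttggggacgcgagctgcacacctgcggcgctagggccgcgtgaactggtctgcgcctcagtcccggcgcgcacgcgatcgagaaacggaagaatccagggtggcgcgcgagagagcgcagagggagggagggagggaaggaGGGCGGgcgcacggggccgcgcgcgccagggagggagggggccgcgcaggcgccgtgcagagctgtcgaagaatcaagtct
Sin3a, chr9:57071790-57071990, plus strand: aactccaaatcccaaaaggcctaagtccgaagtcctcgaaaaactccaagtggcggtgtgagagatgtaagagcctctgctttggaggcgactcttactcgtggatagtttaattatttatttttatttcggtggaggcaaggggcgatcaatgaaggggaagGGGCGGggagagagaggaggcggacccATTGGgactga
Hjurp, chr1:88277645-88277829, minus strand: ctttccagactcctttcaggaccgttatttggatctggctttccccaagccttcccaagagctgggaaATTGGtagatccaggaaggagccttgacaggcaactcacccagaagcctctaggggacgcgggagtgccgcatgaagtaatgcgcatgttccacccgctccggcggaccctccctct
The strongest islands at B9d2 and Sin3a also reached into a neighbour. That of B9d2 covered the start of Tgfb1, the gene of the cytokine TGF-beta, and in replicate 1 that of Sin3a covered the start of Man2c1, an alpha-mannosidase gene. B9d2's own start lay under a weaker island:
B9d2, chr7:25680530-25680779, plus strand: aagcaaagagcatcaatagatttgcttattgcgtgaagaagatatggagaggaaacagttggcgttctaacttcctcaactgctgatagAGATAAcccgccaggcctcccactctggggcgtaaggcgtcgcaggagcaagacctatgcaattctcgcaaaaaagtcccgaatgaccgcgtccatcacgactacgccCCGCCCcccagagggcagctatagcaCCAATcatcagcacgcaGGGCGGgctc
Tgfb1, chr7:25686752-25687001, plus strand: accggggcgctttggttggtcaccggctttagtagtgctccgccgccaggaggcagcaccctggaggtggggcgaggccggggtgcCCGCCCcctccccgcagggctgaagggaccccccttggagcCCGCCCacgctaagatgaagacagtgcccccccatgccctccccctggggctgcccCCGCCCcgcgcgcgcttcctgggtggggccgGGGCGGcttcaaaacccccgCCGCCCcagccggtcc
Man2c1, chr9:57130527-57130674, plus strand: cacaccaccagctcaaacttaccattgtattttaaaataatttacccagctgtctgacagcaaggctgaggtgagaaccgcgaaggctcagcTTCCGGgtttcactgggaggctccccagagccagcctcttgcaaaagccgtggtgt

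Over the whole window of 300 bases around the start, the printed promoters were richer in G and C than the median, except the first of Sin3a. The GC content was 71.7% at Irf2bp2, 59.7% at Hjurp, 57.3% at Man2c1, 56.0% at the first start of B9d2 and 50.0% at the first start of Sin3a, against a median of 52.7% over 32851 promoters. Tgfb1 reached 77.0%. The ratio of observed to expected CpG was 1.09 at Irf2bp2, 0.827 at Hjurp and 0.778 at the first start of Sin3a, against a median of 0.384. Tgfb1 held 6 GC boxes, a number that 1.35% of promoters reached, and the motif occurs at least once in 35.7% of them. The ETS motif, held by 14.9% of promoters, occurred 3 times at Man2c1, 2 times at Hjurp and 1 time at the first start of Sin3a. Both ETS matches at Hjurp, 2 of those at Man2c1, that at Sin3a and 1 GC box of Tgfb1 fall in bases that are not printed. A GATA motif occurred at Rhof and at the first start of B9d2 (AGATAA, in 11.2% of promoters), and the other GATA motif, in 9.05% of promoters, at neither. CCAAT, held by 37.4% of promoters, occurred at every start of the 7 genes in the table except that of Irf2bp2. No window of these genes held CACGTG (7.15% of promoters), TATAAA (13.6%), the IRF-like motif (GAAA repeated with any 2 bases between, 3.44%) or TGTGGT (16.8%), which says only that these letters are not there.

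By UTX reads in the strongest island, Hjurp stood apart from the others of the 7552 genes. Its strongest island held 1427 rpm (reads scaled to 1000000 reads in islands of the library) in replicate 1 and 1402 rpm in replicate 2, rank 1 of 7552 by the smaller of both values. Over all islands of the library, 6 in replicate 1 and 2 in replicate 2 held at least as many reads, its own included. In the order of the smaller value, Irf2bp2 had 307 and 451 rpm, Rhof 306 and 487, Trim8 424 and 302, Sin3a 349 and 286, Zfp36l2 246 and 351, and B9d2 235 and 319. The medians over the 7552 genes were 77.2 and 72.5 rpm. These values chose the genes, so they are given without a test. The order of the 6 genes below Hjurp differed between the libraries: Trim8 was the highest of them in replicate 1 and Rhof in replicate 2. By the smaller value Irf2bp2, Rhof, Trim8 and Sin3a had ranks 5, 6, 8 and 9, Zfp36l2 rank 17 and B9d2 rank 25.

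The 7 genes are not the 7 highest. Another 19 genes had a smaller value at or above that of B9d2, of which 3 shared an island with 1 of the 7 genes (Setd1b with Rhof, Thada with Zfp36l2 and Tgfb1 with B9d2). Just outside were Arid1a, a subunit of the BAF chromatin remodeller, with 234 and 343 rpm, the histone genes H1f1, H3c1 and H4c1 over 1 island (231 and 287 rpm) and Kif22 (276 and 231 rpm). No IgG island lay within 20 kb of any of the 7 genes. The IgG library held only 154029 reads in islands, and a file of islands gives no reads elsewhere.

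**Figure D1:**
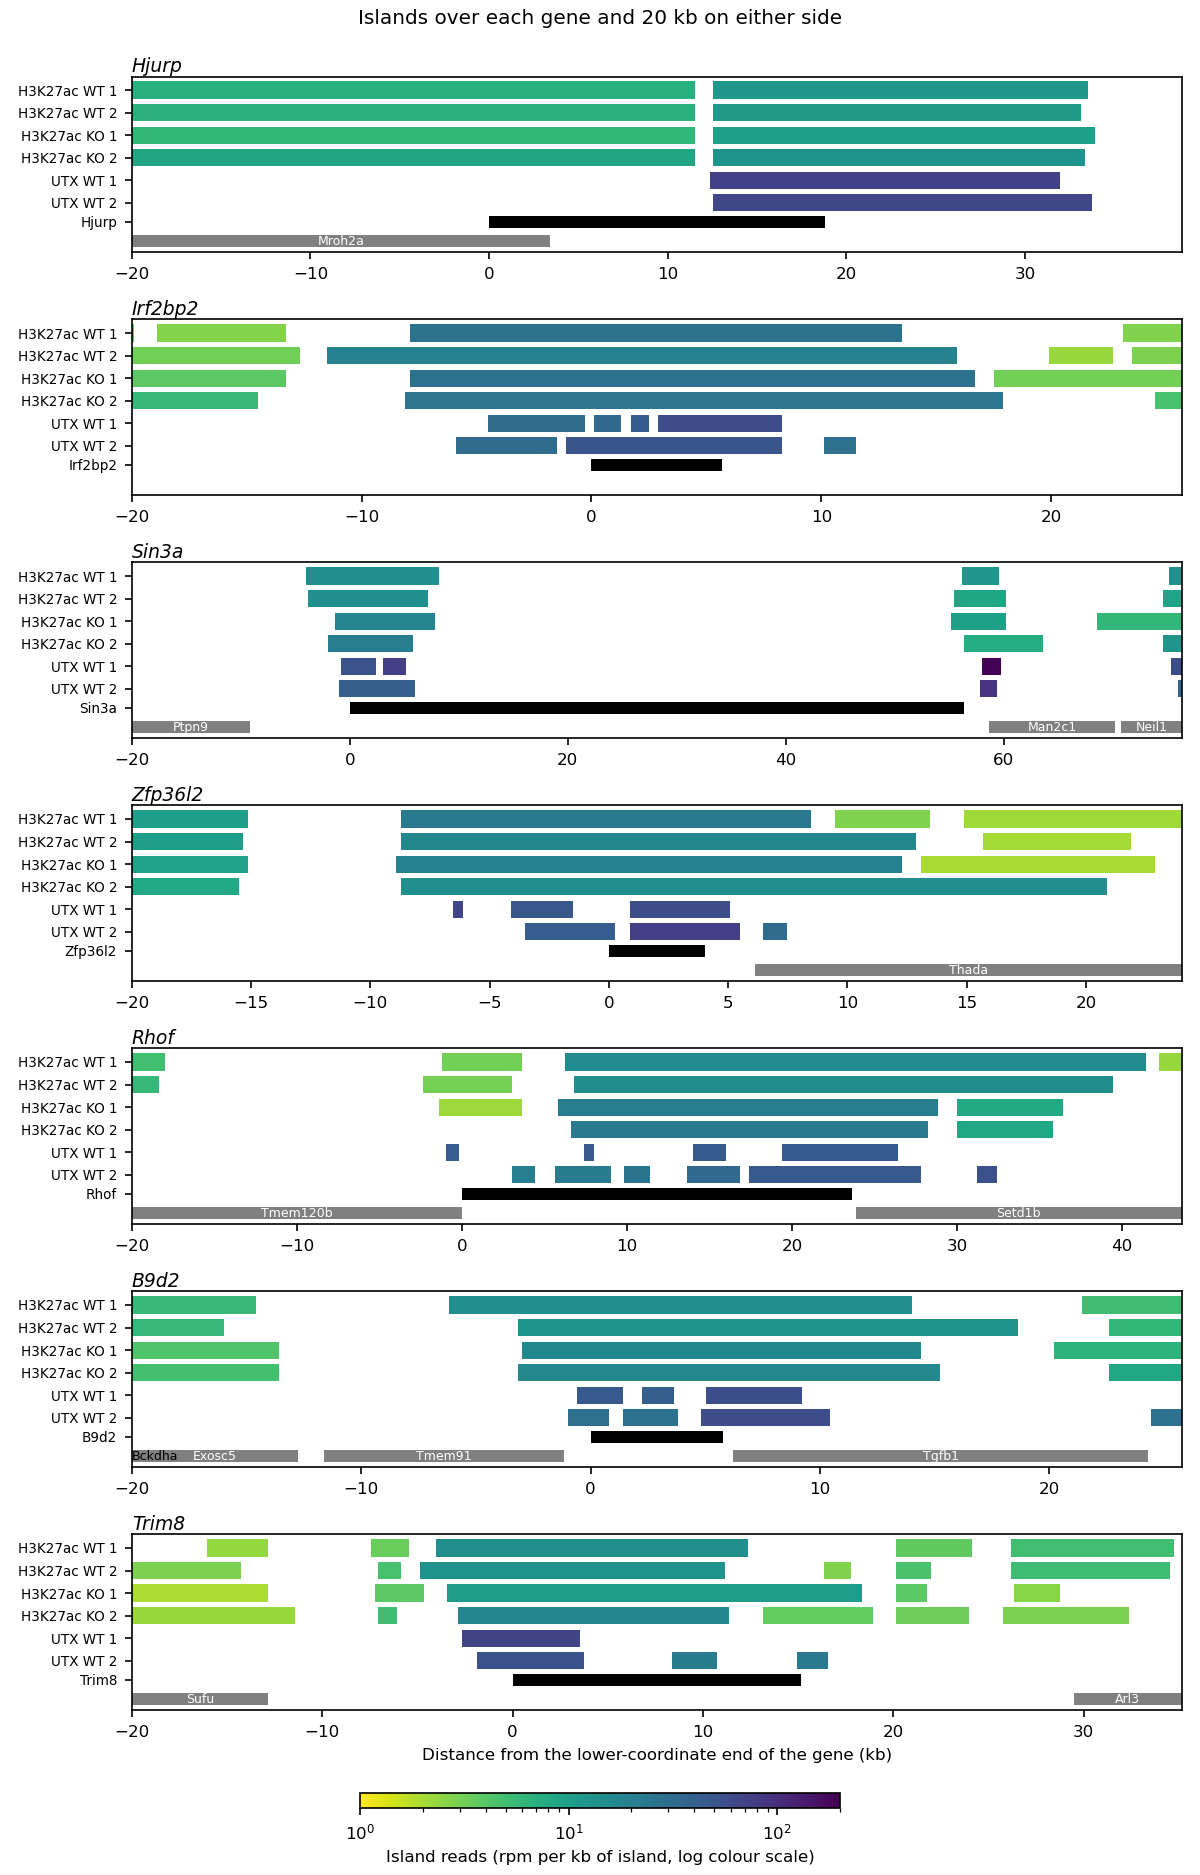
Islands of H3K27ac (2 WT and 2 KO libraries) and UTX (2 WT libraries) over each of the 7 genes and 20 kb on either side, coloured by rpm per kb of island on a log colour scale. The black bar is the gene, grey bars are neighbouring genes, and the x axis is the distance in kb from the end of the gene with the lower coordinate. Each gene end with a strong UTX island lies in H3K27ac in all 4 libraries, and at Hjurp the UTX island fills the upper of 2 H3K27ac islands.

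Most of these islands were wide, which a choice by reads per island favours, and their density varied. At Hjurp (chromosome 1, 88258856 to 88277644, mm10) the UTX island was 19.6 kb wide in replicate 1 and 21.2 kb in replicate 2, the widest of 18313 islands in the second library. The median island was 1.2 and 1.6 kb wide. Those at Irf2bp2 (5.4 and 9.4 kb), Rhof (7.0 and 10.4 kb), Trim8 (6.2 and 5.6 kb), B9d2 (4.2 and 5.6 kb) and Zfp36l2 (4.2 and 4.6 kb) were also wide. Per kb of island, Rhof had 43.7 and 46.9 rpm, Hjurp 72.8 and 66.1 rpm and Zfp36l2 58.6 and 76.2 rpm, against medians over all islands of 42.9 and 27.9 rpm per kb. In replicate 2 only 0.491% of all islands were denser than that of Zfp36l2 and 0.732% denser than that of Hjurp, while in replicate 1 the shares were 20.9% and 9.44%. Ranked by rpm per kb, only Sin3a was still among the 25 highest genes (rank 4). Hjurp then ranked 1088, Trim8 1417, Zfp36l2 2605, Irf2bp2 2824, B9d2 2983 and Rhof 5447.

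Sin3a was the exception. Its strongest island in replicate 1 was 1.8 kb wide with 194 rpm per kb and lay beyond the 3′ side of the gene, over the start of Man2c1 (chromosome 9, 57130001 to 57131800). In replicate 2 the strongest lay over the start of Sin3a itself, 7.0 kb wide with 40.8 rpm per kb, and the Man2c1 island held 144 rpm. At the start of Sin3a, replicate 1 had 2 islands of 167 rpm each. The rank of Sin3a by reads therefore joins different islands, and with gene ends of 1 kb in place of 2 kb it was 139. Its rank by rpm per kb rests on the Man2c1 island in both libraries (194 and 89.9 rpm per kb).

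**Figure D2:**
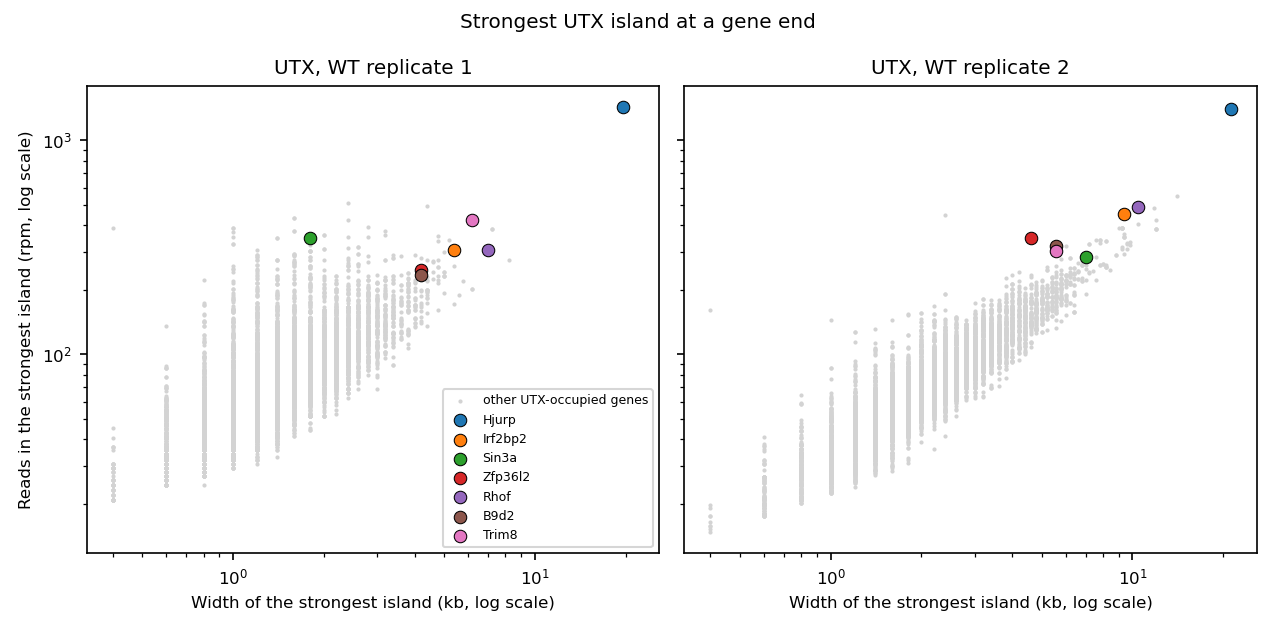
Width in kb (x axis, log scale) and reads in rpm (y axis, log scale) of the strongest UTX island at a gene end, 1 panel per UTX library. Coloured points are the 7 genes and grey points the other UTX-occupied genes; Hjurp lies beyond all others in both panels, and Sin3a is narrow in replicate 1 only.

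The place of the strong island relative to the listed start differed between the genes. At Hjurp (start 88277579, minus strand) and Irf2bp2 (start 126593986, minus strand) the strongest island covered the start in both libraries. At Rhof (chromosome 5, 123118180 to 123141808, minus strand) the listed start at 123132629 lay under islands of 89.4 and 104 rpm. The strongest island lay over the high end of Rhof, the annotated 5′ end of this minus-strand gene, which is 232 bp from Setd1b, an H3K4 methyltransferase gene, and reached into both genes. At B9d2 (chromosome 7, 25680780 to 25686562, plus strand) the islands over the first start held 93.1 and 53.4 rpm. The strongest lay over the end of the gene and the start of Tgfb1 at 25687002. At Zfp36l2 (chromosome 17, 84183924 to 84187947) the strongest island covered most of the gene, from 84184801 in both libraries, and reached within 2 kb of Thada. At Trim8 (chromosome 19, 46501648 to 46516805) it covered the low end of the gene in both libraries.

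UTX at the 7 genes lay mostly within H3K27ac of WT cells. Of the UTX islands in the windows (gene plus 20 kb), 20 of 20 in replicate 1 and 21 of 23 in replicate 2 met an H3K27ac island of both WT libraries. Over all UTX islands the shares were 73.4% and 71.7%. Wholly inside H3K27ac lay 18 of 20 and 19 of 23, against 65.1% and 57.6% of all islands. All islands take in weaker ones and those away from gene ends, and strong islands at other genes were not compared. The exceptions in replicate 2 that met no such H3K27ac were 1 island at Rhof and 1 at Trim8. At Hjurp all 4 H3K27ac libraries had 2 islands with the same break between them, the lower ending at 88270400 and the upper starting at 88271401. The UTX island started at 88271401 in replicate 2 and at 88271201 in replicate 1.

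The H3K27ac libraries held 9330823 to 15256696 reads in islands, the H3K27me3 libraries 2347442 to 2743508 and the UTX libraries 816567 and 1834418. All 10 markers of haematopoietic stem and progenitor cells held H3K27ac in all 4 libraries. Their summed level was 2272 and 2443 rpm in WT and 2442 and 2095 rpm in KO, but single markers differed in both directions. Lmo2 held 448 and 518 rpm in WT and 212 and 205 rpm in KO. Spi1 held 170 and 268 rpm in WT and 412 and 364 rpm in KO. The 3 T cell markers found among the genes (Cd3e, Cd4 and Cd8a) and 3 neuronal markers held none. Of 4 mature B cell markers, Cr2 had none in any library, and the summed level was 70.1 and 57.7 rpm in WT and 104 and 126 rpm in KO. Of 4 stromal or endothelial markers only Pecam1 had H3K27ac (98.4 and 113 rpm in WT, 192 and 197 rpm in KO), while Col1a1, Col1a2 and Cdh5 had none. The part of such cells in the results at the 7 genes was not tested.

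H3K27ac at the 7 genes did not pass the test in either direction. It was read in the strongest region at each gene, a region being islands of the 4 libraries merged where they overlap. Values are CPM, counts scaled to 1000000 reads in tested regions after the library totals were adjusted by TMM, the normalization used in edgeR. None of the 7 regions passed in edgeR at an adjusted p of 0.05 (0 of 7), against 26.0% of 18820 tested regions. In all, 2258 regions were higher in KO (12.0%) and 2631 lower (14.0%). Scaled by the length covered by islands, 79 were higher and 259 lower. At an unadjusted p under 0.05, 1 of the 7 passed, and with DESeq2 1 of the 7. The WT and KO values did not overlap at 4 of the 7 genes, against 66.2% of all regions. The median log2 fold change, KO over WT, was -0.014 over the 7 regions and -0.00020 over all regions, and the single values ran from -0.12 to 0.18. The regions were large: their median width was 33 kb and median WT level 344 CPM, against 7 kb and 31.7 CPM over all regions. In a mixed population, less of the mark per cell and fewer cells with it cannot be told apart.

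Among the regulators of transcription, Irf2bp2 had the largest value. Its H3K27ac region (chromosome 8, 126576801 to 126623200) held 663 and 657 CPM in WT and 757 and 737 CPM in KO. Both KO libraries lay above both WT libraries. The log2 fold change was 0.18 (SE 0.0663, n = 2 and 2, 95% interval 0.02 to 0.33), with an edgeR adjusted p of 0.0932. The call turned with the method: the adjusted p was 0.0383 with DESeq2 and 0.0291 with edgeR scaled by library totals. It did not pass in the other settings. Scaled by covered length the log2 fold change fell to 0.04 (edgeR adjusted p 0.880), and with the replicate block it was 0.18 (edgeR adjusted p 0.122). Leaving out 1 library gave 0.16 to 0.20. Sin3a had 195 and 184 CPM in WT and 174 and 173 CPM in KO in the region over its start (chromosome 9, 57068001 to 57080200). Both KO libraries were below WT. The log2 fold change was -0.12 (SE 0.0771, 95% interval -0.31 to 0.06, edgeR adjusted p 0.282). A second region beyond its 3′ side, at Man2c1, where UTX was densest, had 47.5 and 48.3 CPM in WT and 52.1 and 55.7 CPM in KO (log2 fold change 0.17, SE 0.117, edgeR adjusted p 0.337).

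The gene of the RNA-binding protein Zfp36l2, in a region shared with an end of Thada, had almost equal values, 470 and 445 CPM in WT and 461 and 445 CPM in KO. The groups overlapped, and the interval of the log2 fold change ran from -0.18 to 0.15 (estimate -0.01, SE 0.0715, edgeR adjusted p 0.904). The ubiquitin ligase gene Trim8 had 270 and 254 CPM in WT and 267 and 282 CPM in KO. These also overlapped (log2 fold change 0.06, SE 0.0764, 95% interval -0.12 to 0.24, edgeR adjusted p 0.580).

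The last 3 are Rhof, B9d2 and Hjurp. Rhof, whose region also covers an end of Setd1b, had 611 and 576 CPM in WT and 565 and 563 CPM in KO (log2 fold change -0.07, SE 0.0698, 95% interval -0.24 to 0.09, edgeR adjusted p 0.488). B9d2, in a region with Tgfb1 and Tmem91, had 323 and 323 CPM in WT and 306 and 313 CPM in KO (-0.06, SE 0.0694, 95% interval -0.23 to 0.10, edgeR adjusted p 0.552). In both, the KO libraries lay below the WT libraries, and the difference did not pass the test. The lower of the 2 regions of Hjurp also covers the whole of Mroh2a and lies outside the UTX island. In it Hjurp had 337 and 350 CPM in WT and 292 and 409 CPM in KO (0.03, SE 0.146, 95% interval -0.32 to 0.37, edgeR adjusted p 0.912). The KO libraries lay on either side of WT there. The upper region, which holds the UTX island, had 278 and 270 CPM in WT and 228 and 274 CPM in KO (-0.13, SE 0.0996, 95% interval -0.36 to 0.11, edgeR adjusted p 0.401).

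**Figure D3:**
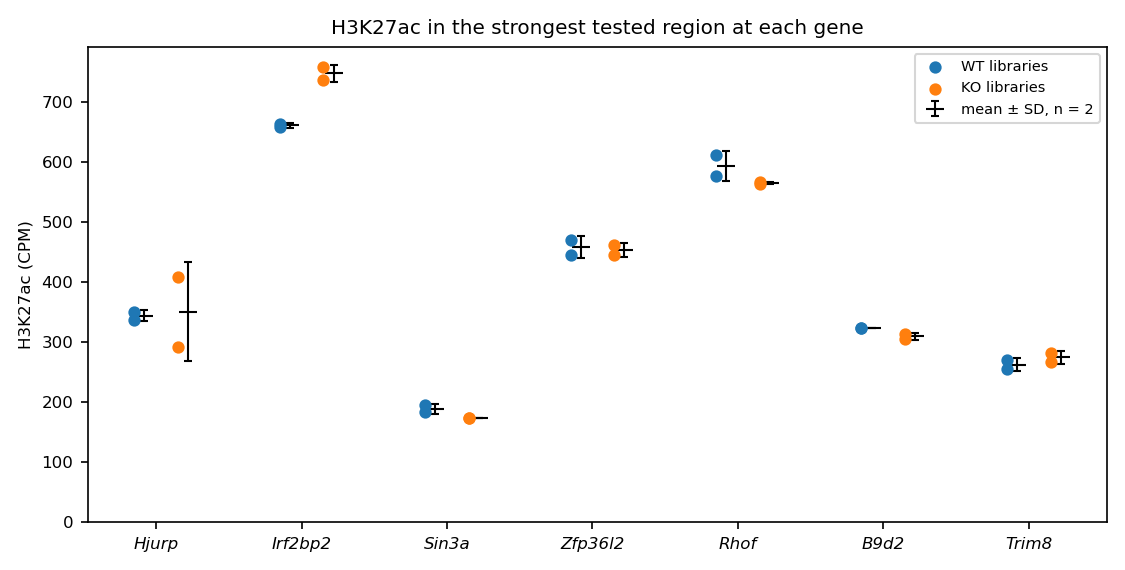
H3K27ac in CPM (y axis, from 0) in the strongest tested region at each of the 7 genes, 1 point per library, WT in blue and KO in orange, with the mean ± SD of 2 libraries beside the points. The widest spread is in the KO libraries of Hjurp (292 and 409 CPM), which lie on either side of WT. The KO libraries of Irf2bp2 lie above WT (757 and 737 against 663 and 657 CPM), and those of Sin3a, Rhof and B9d2 below it.

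The length covered by H3K27ac separated WT from KO at 4 of the 7 genes. Such separation was common: of all tested regions, 17.5% were shorter and 24.9% longer in both KO libraries. At Sin3a the islands covered 12.2 and 11 kb in WT and 9.2 and 7.8 kb in KO, at B9d2 20.2 and 21.8 kb and then 17.4 and 18.4 kb, and at Rhof 35.2 and 32.6 kb and then 29.4 and 27.4 kb. At these 3 genes both KO libraries were shorter than both WT libraries. At Rhof both WT libraries had 1 island, and both KO libraries had 2 with the second starting at 123148201. At Trim8 the length was greater in both KO libraries (18.4 and 18.6 kb in WT, 24.4 and 21.0 kb in KO). The lengths overlapped at Hjurp, Irf2bp2 and Zfp36l2. Per covered kb, H3K27ac at Rhof was 17.4 and 17.7 CPM in WT and 19.2 and 20.5 CPM in KO, and at Sin3a 16.0 and 16.7 CPM and then 18.9 and 22.2 CPM. Scaled in this way the log2 fold change turned to 0.33 at Sin3a, 0.18 at Rhof, 0.17 at B9d2 and -0.22 at Trim8, and none of the 7 passed the test. Depth differed between the libraries and its part in the lengths was not tested.

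Changes in H3K27ac lay around 5 of the 7 genes, in regions that do not reach an end of these genes. Within 20 kb of the 7 genes there were 10 further tested regions, of which 3 were higher in KO, 2 lower and 5 not called, beside the 26.0% of all regions called. Here below and above mean lower and higher coordinates. The largest was at Trim8, in a region 25.8 kb from its low end at the end of Arl3, a small GTPase gene of cilia (chromosome 19, 46527401 to 46536400). It fell from 47.1 and 50.3 CPM in WT to 6.55 and 19.9 CPM in KO (log2 fold change -1.90, SE 0.438, edgeR adjusted p 0.0199). Below Zfp36l2 a region of 35.2 kb (chromosome 17, 84133601 to 84168800) fell from 404 and 425 CPM to 350 and 298 CPM (-0.36, SE 0.0943, edgeR adjusted p 0.0327). The WT and KO libraries did not overlap in either.

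The 3 regions that rose lay near B9d2, Irf2bp2 and Sin3a. Below B9d2 a region over the ends of Dmac2, B3gnt8, Bckdha, Exosc5 and Tmem91 (chromosome 7, 25621601 to 25667200) rose from 245 and 248 CPM to 306 and 347 CPM (0.40, SE 0.0849, edgeR adjusted p 0.0140). Below Irf2bp2 a region with no gene end (chromosome 8, 126556601 to 126575600) rose from 39.8 and 43.1 CPM to 72.9 and 56.6 CPM (0.64, SE 0.152, edgeR adjusted p 0.0219). Above Sin3a a region at Man2c1 and Neil1, a DNA glycosylase gene, rose from 50.6 and 43.0 CPM to 66.7 and 62.7 CPM (0.47, SE 0.128, edgeR adjusted p 0.0344), but scaled by covered length it was -0.45.

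None of the 5 calls held under every scaling or without every library. Scaled by covered length none passed: the log2 fold change was -0.99 at Trim8 (adjusted p 0.0580), -0.36 at Zfp36l2 (0.133), 0.26 at B9d2 (0.320), 0.43 at Irf2bp2 (0.425) and -0.45 at Sin3a (0.559). At Zfp36l2 the fold thus stayed the same to 2 decimals. When regions present in 2 or more libraries were tested, that at B9d2 still passed (adjusted p 0.0331) and the other 4 did not (0.0590 to 0.113), with folds of -1.90 at Trim8, -0.36 at Zfp36l2, 0.64 at Irf2bp2 and 0.47 at Sin3a. The region below Zfp36l2 also lost its call with library totals (0.0590) and when regions were merged across 1000 bp, which joins it to others (-0.12, adjusted p 0.409). The region at Trim8 lost its call without WT replicate 1 or 2 (adjusted p 0.0996 and 0.116), and its log2 fold change ran from -2.89 without KO replicate 2 to -1.29 without KO replicate 1. That at B9d2 lost it without KO replicate 2, WT replicate 1 or WT replicate 2 (0.0760, 0.0652 and 0.0621), and that at Zfp36l2 without the same 3 libraries (0.148, 0.107 and 0.170). That at Irf2bp2 lost it without KO replicate 1, WT replicate 1 or WT replicate 2 (0.131, 0.114 and 0.0850). That at Sin3a lost it without KO replicate 1, KO replicate 2 or WT replicate 2 (0.148, 0.0819 and 0.120). With 1 library left in a group, it is assumed to vary like the other group.

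**Figure D4:**
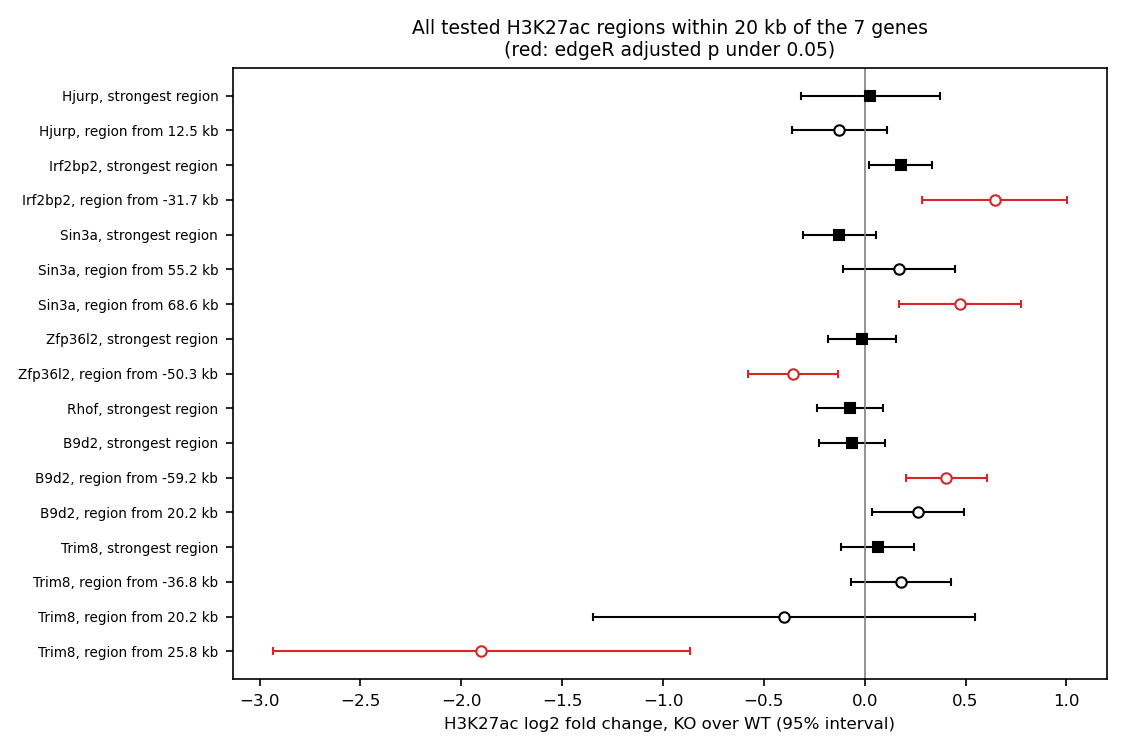
Log2 fold change of H3K27ac, KO over WT, with its 95% interval from edgeR (x axis), for the strongest region at each gene (squares) and every other tested region within 20 kb (circles, named by the kb from the low end of the gene to the low edge of the region). Red marks an edgeR adjusted p under 0.05: none of the 7 strongest regions is red, and of the other 10 there are 3 above 0 and 2 below.

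H3K27me3, the mark that UTX removes, was nearly absent from the island lists at these genes. In WT and in KO alike, none of the 7 genes had a tested H3K27me3 region at a gene end, so no test could be made there. Within 20 kb, the single tested region lay at Tmem91 beside B9d2, with 39.8 and 46.6 CPM in WT and 37.7 and 47.9 CPM in KO (log2 fold change -0.01, SE 0.408, 95% interval -0.92 to 0.89, edgeR adjusted p 0.996). The groups overlapped, and the interval is wide. An island of 65 reads (25.9 rpm) lay above Trim8 in KO replicate 2 only. Hjurp, Irf2bp2, Sin3a, Zfp36l2 and Rhof had no H3K27me3 island within 20 kb in any of the 4 libraries. Over the whole mark, 0 of 6771 regions were higher and 1 was lower (0.0148%) in edgeR, with 517 at an unadjusted p under 0.05, and DESeq2 called 16 higher and 18 lower. A region without an island can still hold reads under the calling threshold.

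Other genes of these pathways were read in the same way. Of 62 H3K27ac regions at genes that share a complex, family or pathway with Hjurp, Irf2bp2, Sin3a, Zfp36l2, B9d2 or Trim8, 6 were higher in KO (9.68%) and 3 lower (4.84%), beside 12.0% and 14.0% of all regions. Their median log2 fold change was -0.04. Of 10 H3K27me3 regions at these genes, 0 were higher and 0 lower in edgeR.

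The relatives of Zfp36l2 moved in opposite directions. Zfp36, the founding member of this family of mRNA decay factors, rose from 336 and 337 CPM in WT to 460 and 500 CPM in KO in a region shared with Plekhg2 and Med29 (log2 fold change 0.51, SE 0.0748, edgeR adjusted p 0.00350). Zfp36l1, in a region shared with Gm52006, fell from 313 and 270 CPM to 219 and 212 CPM (-0.44, SE 0.0910, edgeR adjusted p 0.0137). Scaled by covered length Zfp36 was 0.44 and Zfp36l1 -0.31. Of the listed subunits of the CCR4-NOT deadenylase none passed, with Cnot2 at 0.35 and Cnot6 at -0.31. Zfp36 and Zfp36l1 also carried UTX, with 165 and 291 rpm at Zfp36 and 195 and 217 rpm at Zfp36l1.

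The B9 module of the ciliary transition zone, to which B9d2 belongs, had 12 of 14 genes with a tested region, with 3 higher and 0 lower. Mks1 had the largest value, from 62.3 and 23.8 CPM to 184 and 173 CPM (2.08, SE 0.365, edgeR adjusted p 0.00708), in a region shared with Epx, the gene of eosinophil peroxidase. Tmem216 rose from 38.5 and 36.8 CPM to 65.0 and 67.1 CPM (0.81, SE 0.116, edgeR adjusted p 0.00320), but scaled by covered length it was -0.11. Ahi1 rose by 0.25 and was -0.05 in that scaling.

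For Sin3a, all 18 genes of the SIN3 complex had a tested region and 1 was higher. This was Sap30l (0.56, SE 0.168, edgeR adjusted p 0.0474), which was -0.27 when scaled by covered length. The deacetylases Hdac1 and Hdac2 were at -0.24 and -0.08 and were not called. In the list of Hjurp and related centromere genes, 1 of 10 was lower. This was Oip5, of the complex that licenses CENP-A deposition, in a region shared with Nusap1. It fell from 96.0 and 97.1 CPM to 69.9 and 69.9 CPM (-0.47, SE 0.0923, edgeR adjusted p 0.0112). Cenpa itself was at -0.34 (edgeR adjusted p 0.0991). In the list of Irf2bp2 with its relatives and partners, 5 of 6 genes had a region and none was called. Irf2bpl was at -0.25 and Irf2 at -0.26. Around Trim8, Socs1, the cytokine signal inhibitor that TRIM8 binds, rose (0.54, SE 0.122, edgeR adjusted p 0.0180, -0.05 scaled by covered length). The region of Socs1 is shared with Tnp2, Prm3 and Prm2. Cish, a second inhibitor of the family, fell (-0.56, SE 0.151, edgeR adjusted p 0.0343, 0.14 scaled by covered length).

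Of the 9 genes called, Zfp36, Mks1 and Tmem216 kept their call when each of the 4 libraries was left out in turn, and only Mks1 was called when scaled by covered length (1.04, edgeR adjusted p 0.0319).

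**Figure D5:**
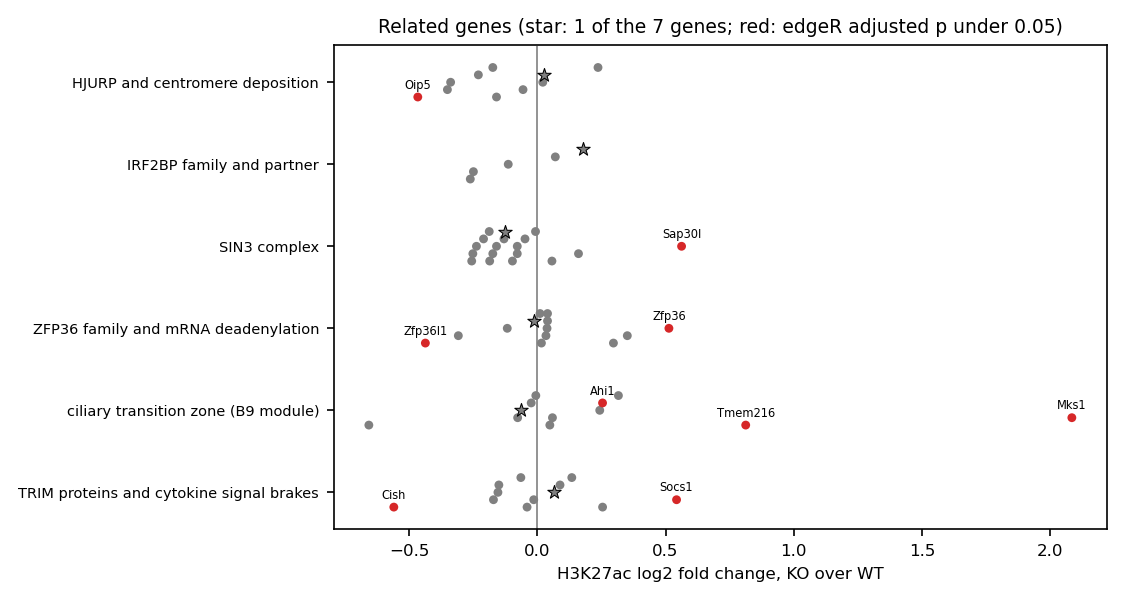
Log2 fold change of H3K27ac, KO over WT (x axis), at the genes of the 6 lists, 1 row per list and 1 point per gene with a tested region. Stars are 6 of the 7 genes, and red points have an edgeR adjusted p under 0.05: 6 related genes lie to the right and 3 to the left of 0 in red, and no star is red.

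Some genes outside the 7 had a like profile. Likeness was the Euclidean distance to the median profile of the 7 genes in log2(rpm + 1) over 6 libraries, 2 of UTX and 4 of H3K27ac, read at the strongest island at a gene end. The nearest was Ptma, the gene of prothymosin alpha, at 0.390, followed by Arid1b (0.599), Arid2 with the overlapping end of Gm38469 (0.603), Brd2 with H2-DMa (0.603) and Arid1a (0.684). Among the 7 genes themselves the distance ran from 0.574 at B9d2 to 2.98 at Hjurp. Arid1a and Arid1b are subunits of the BAF chromatin remodeller and Arid2 of the related PBAF, and Brd2 is a reader of acetylated histones. Their H3K27ac values were -0.07 at Ptma, 0.13 at Arid1b, -0.10 at Arid2, -0.08 at Brd2 and -0.16 at Arid1a (log2 fold change, none called in edgeR). The H3K27ac libraries of WT and KO entered the likeness, so the choice itself favoured small folds. These values are therefore no separate result. The region at H1f1, H3c1 and H4c1 was lower in KO (-0.29, SE 0.0869, edgeR adjusted p 0.0462) and that at Kif22 was not called (0.04, edgeR adjusted p 0.743).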

How the data were processed

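ChIP-seq of H3K27ac, H3K27me3, UTX and IgG was read from the deposited island files of 11 of 14 samples. The remaining 3 samples, inputs and a second IgG that the labels assign to the UTX experiment, had no island list and were not analysed here. The authors called islands with SICER on build mm10, per the submitters' processing notes. Versions, aligner and thresholds are not given in the sources used here. The deposited values are counts, whole numbers of reads per island and library. Islands lie in steps of 200 bp and were placed on chromosomes 1 to 19, X and Y. Reads outside islands were not used, so depth means reads in islands.

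Genes are RefSeq GRCm38.p6 protein-coding genes. Values in rpm are scaled to 1000000 reads in islands. For each histone mark, overlapping islands (1 bp or more) of its 4 libraries were joined into regions. Regions present in all 4 entered edgeR 4.0.16, run in R 4.3.3 (TMM, quasi-likelihood F test, two-sided, Benjamini-Hochberg over all regions, threshold 0.05), tested on simulated data. DESeq2 1.42.0, other scaling, filters, windows, and leaving out each library were alternatives. Named genes are the 7, genes sharing their islands or regions, the 5 ranked next, the 5 most alike (pseudocount 1), and called members of 6 gene lists with others of large change. A list for the remaining gene is not reported here. The genes and lists were chosen with earlier results of these data known. UTX values chose the genes and were not tested.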

Additional observations from a re-analysis of the deposited data

How the results depend on the processing

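The island files hold no reads outside islands, so a mark under the calling threshold cannot be seen, and each group has 2 libraries. Regions higher in KO in H3K27ac numbered 2258, and 79 scaled by covered length. Those lower numbered 2631, and 259 scaled by covered length and 5225 with an island in at least 2 libraries. Leaving out each of the 4 libraries gave 1227 to 1392 higher and 1369 to 1907 lower. Of the 7 genes, 0 were called, and 1 (Irf2bp2, higher) with DESeq2 and with library totals. For H3K27me3, 0 regions were higher and 1 lower. DESeq2 gave 16 and 18, scaling by covered length 3 higher, and leaving out libraries 0 to 1 higher and 0 to 6 lower. None was lower with islands in at least 2 libraries, library totals, merging across 1000 bp, the stronger 3 in 4 islands or the replicate block, each giving 0. Leaving out 1 library moved the log2 fold change across 0 for Hjurp (-0.23 to 0.25, and -0.26 to 0.0013 in its upper region), for Zfp36l2 (-0.041 to 0.034), for the region 20.2 kb from the low end of Trim8 (-0.97 to 0.024) and for the H3K27me3 region at Tmem91 (-0.20 to 0.15). Scaled by covered length the sign changed for Sin3a (0.33), its 3′ region (-0.40), Rhof (0.18), B9d2 (0.17), Trim8 (-0.22), the region at Man2c1 and Neil1 (-0.45), that at Sufu below Trim8 (-0.065) and the H3K27me3 region (0.013). With library totals it changed for Zfp36l2 (0.055), B9d2 (0.0078) and the H3K27me3 region (0.0036), which was 0.0044 with at least 50 reads in every library. Merging across 1000 bp joined the region above B9d2 to the next one (-0.28). The cause was not tested. Of the 7 genes, all 7 were among the 25 highest in UTX, 1 by reads per kb of island, and 2 to 4 when either UTX library was left out. Within 20 kb 2 genes had an H3K27me3 island in any library, 1 within 5 kb and 5 within 50 kb. Replicates share numbers in the labels. With the replicate block 2615 H3K27ac regions were higher and 2883 lower, and same-numbered libraries correlated by 0.047 in H3K27ac and -0.052 in H3K27me3, with 2 pairs.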

Other observations

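Around Rhof, 3 further H3K27ac regions lacked an island in at least 1 library and entered no main test. Around the other 6 genes there was none. A region within Tmem120b, a transmembrane protein gene below Rhof (chromosome 5, 123088601 to 123100200), held 51.7 and 65.0 rpm in WT, no island in KO replicate 1 and 11.6 rpm in KO replicate 2. In the edgeR fit of regions present in 2 or more libraries its adjusted p was 0.242. A region at the low end of Rhof (123115801 to 123121800) held 14.8 and 16.5 rpm in WT, 11 rpm in KO replicate 1 and no island in KO replicate 2 (edgeR adjusted p 0.715). The last (123160401 to 123163200) had an island of 59 reads in WT replicate 1 only.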
